A study of Rattus norvegicus with 4 samples.

Results

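The miRNAs numbered miR-103, miR-107, miR-191, miR-423 and miR-425 are often used as reference miRNAs, to which other miRNAs of a cell or vesicle sample are scaled. They were followed here in rat growth plate chondrocytes and in the matrix vesicles (MVs) these cells make, to see how steady each of them was between vesicles and cells. Every product with one of these numbers, whatever its letter or arm suffix, was taken, and equal names were added together. This gave 12 of the 740 mature miRNA names in the count table. They are the 6 main products rno-miR-103-3p, rno-miR-107-3p, rno-miR-191a-5p, rno-miR-425-5p, rno-miR-423-5p and rno-miR-423-3p (rno for Rattus norvegicus, left out below), and 6 minor ones, miR-103-1-5p, miR-103-2-5p, miR-107-5p, miR-191a-3p, miR-191b and miR-425-3p.

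Small RNA was sequenced from 4 libraries, 1 per group. RC-cells were resting zone chondrocytes and GC-cells were growth zone (prehypertrophic and upper hypertrophic) chondrocytes from the costochondral cartilage of male Sprague Dawley rats, and RC-MVs and GC-MVs were the vesicles pelleted by ultracentrifugation from the trypsin-digested layers of these cultures. All cultures were untreated, confluent and at passage 4, in medium with fetal bovine serum and ascorbic acid, and per the study's methods the serum was ultracentrifuged to remove bovine exosomes. The age of the rats and the number of animals behind each culture are not given in the sources used here. The libraries held 6517329 miRNA reads for RC-cells, 1108821 for RC-MVs, 7414467 for GC-cells and 982543 for GC-MVs, so the deepest had 7.55 times the reads of the shallowest. With 1 library per group no difference has a replicate check and no p-value was computed. Intervals (95%) were computed with the Wilson formula for shares and the exact Clopper-Pearson formula for ratios. They cover counting error alone and take each read as independent. Reads copied by PCR from 1 molecule were not told apart, so the intervals can be too narrow. The cartilage markers miR-140 and miR-455 were present in all 4 libraries, with both arms of each and 0.526% to 1.0% of miRNA reads in all, while the listed miR-675-5p had no reads. Most of that sum was miR-140-3p. The ratio of MVs to cells in the resting and growth zone was 0.119 and 0.267 for miR-140-5p and 0.377 and 0.389 for miR-455-5p. It was 2.48 and 1.57 for miR-140-3p and 1.72 and 1.45 for miR-455-3p.

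A miRNA is cut from a hairpin precursor, and either arm, 5p or 3p, can be loaded into an Argonaute protein, where the seed near its 5′ end pairs with target mRNAs. miR-103 and miR-107 are made from introns of the pantothenate kinase genes and have been studied in insulin signalling and in the control of Dicer. miR-191 and miR-425 are made from one transcript, and miR-423 is a miRNA often measured in blood plasma. In the RefSeq annotation, Mir103a1 lies inside Pank3 on chromosome 10, Mir103a2 inside Pank2 on chromosome 3, Mir107 inside Pank1 on chromosome 1, Mir191 and Mir425 side by side inside Dalrd3 on chromosome 8, and Mir423 inside Nsrp1 on chromosome 10.

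The mature sequences of 5 of the 6 main products are shown because the results turn on them and because 2 of them are nearly the same. They are the RefSeq sequences of the GRCr8 assembly, written 5′ to 3′, with the seed (bases 2 to 8) in capitals.
miR-103-3p: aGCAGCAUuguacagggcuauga
miR-107-3p: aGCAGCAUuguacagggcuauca
miR-191a-5p: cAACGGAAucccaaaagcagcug
miR-425-5p: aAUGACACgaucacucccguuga
miR-423-5p: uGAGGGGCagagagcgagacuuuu

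On GRCr8 these sequences lie at chr3:138963278-138963300 on the plus strand for miR-103-3p, chr1:241750431-241750453 on the minus strand for miR-107-3p, chr8:118142641-118142663 on the plus strand for miR-191a-5p, chr8:118143094-118143116 on the plus strand for miR-425-5p and chr10:62412317-62412340 on the minus strand for miR-423-5p. The position of miR-103-3p is that at Mir103a2. Its other locus, Mir103a1 on chromosome 10, had no position in the sequences used here. The reads themselves were aligned by the authors to an earlier build, Rnor_6.0. The miRNAs miR-103-3p and miR-107-3p share the seed GCAGCAU and have 22 of 23 bases in common. They differ by G22C, counted from the 5′ end with the base of miR-103-3p first, so that the split of reads between them rests on the next-to-last base and is uncertain. No other product among the 660 names with a RefSeq sequence shared this seed, and none shared those of miR-191a-5p or miR-425-5p. The seed of miR-423-5p, GAGGGGC, was shared by miR-3573-5p, which had no reads in any library.

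Together, the 6 main products made up 0.604% of miRNA reads in RC-cells against 1.06% in RC-MVs, and 0.589% in GC-cells and 1.30% in GC-MVs. Between the cells of both zones their shares lay close together, whereas between MVs and cells they went in 3 ways. The shares of miR-103-3p and miR-107-3p were lower in MVs, that of miR-191a-5p was nearly level, and those of miR-425-5p and both arms of miR-423 were higher in MVs.

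**Figure D1:**
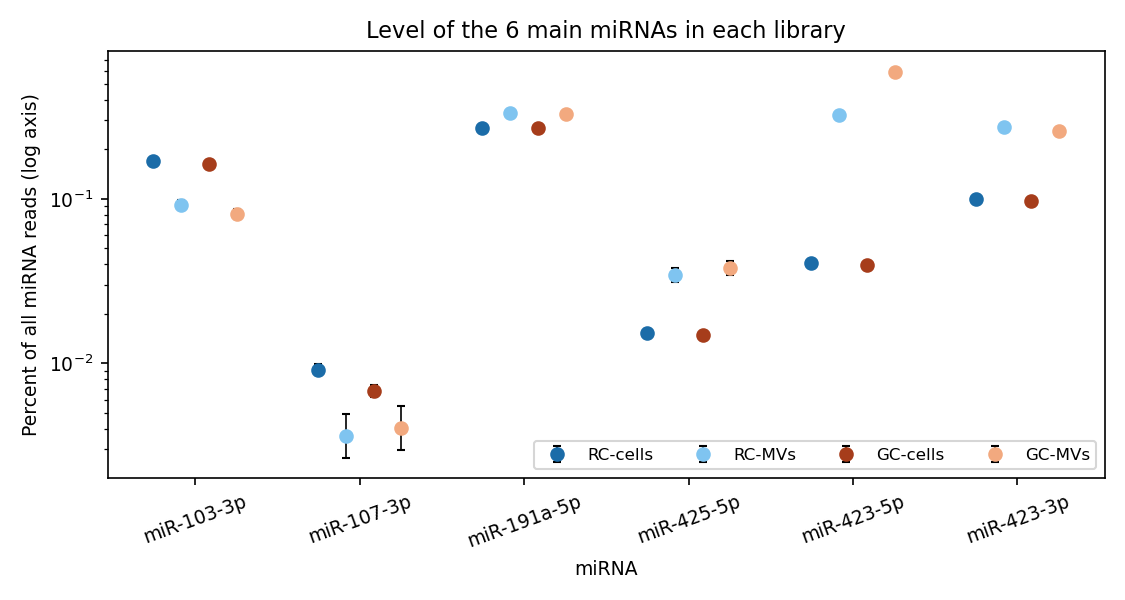
Percent of all miRNA reads (log axis) of the 6 main products in each of the 4 libraries, 1 point per library, with Wilson 95% intervals for counting error. The 4 points of miR-191a-5p lie between 0.268% and 0.332%, while those of miR-423-5p run from 0.0394% in GC-cells to 0.589% in GC-MVs.

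The steadiest member was miR-191a-5p. It had 17532 reads in RC-cells against 3676 in RC-MVs, and 19872 in GC-cells against 3238 in GC-MVs, which were 0.269%, 0.332%, 0.268% and 0.330% of miRNA reads. Both vesicle shares were above both cell shares. The share was 1.23-fold higher in the MVs than in the cells of the resting zone (interval 1.19 to 1.28), and the same fold of 1.23 was found in the growth zone (1.18 to 1.28). These folds are small, but their intervals do not include 1, so the shares were not equal within counting error. Between zones the shares did not differ beyond counting error, with a ratio of 1.004 for RC-cells over GC-cells (0.984 to 1.02) and of 1.006 for RC-MVs over GC-MVs (0.959 to 1.06). These zone ratios depended on the scaling. With TMM or median-ratio size factors, which scale libraries on the bulk of their miRNAs, or with totals that omitted the abundant miR-143-3p, miR-22-3p and miR-21-5p, the log2 ratio lay between -0.35 and -0.31 for the cells and between -0.62 and -0.19 for the MVs, whereas that of MVs to cells stayed above 0 in both zones, between 0.07 and 0.40. By abundance, miR-191a-5p ranked 39 and 34 among all names in RC-cells and GC-cells, and 35 and 33 in RC-MVs and GC-MVs.

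The other arm of the same hairpin, miR-191a-3p, had 46 reads in RC-cells against 8 in RC-MVs, and 37 in GC-cells against 5 in GC-MVs. The 5p arm held at least 99.7% of the reads of both arms in each library. The ratio of MVs to cells for miR-191a-3p was 1.02 in both zones, with intervals from 0.417 to 2.19 and from 0.313 to 2.60 that are too wide to call it steady. The product miR-191b, read from the opposite strand of the same place, had 0 reads in all libraries. Taking 3 reads as the limit for a count of 0, this allows a share of up to 4.6e-05% in RC-cells and up to 0.000305% in GC-MVs.

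The cluster partner miR-425-5p was less abundant and not level. It had 996 reads (0.0153%) in RC-cells against 381 (0.0344%) in RC-MVs, and 1096 (0.0148%) in GC-cells against 372 (0.0379%) in GC-MVs. Its share was 2.25-fold higher in the MVs than in the cells of the resting zone (1.99 to 2.53) and 2.56-fold higher in the MVs than in the cells of the growth zone (2.27 to 2.88). The ratio of miR-191a-5p to miR-425-5p, which does not depend on how a library is scaled, was 17.6 in RC-cells and 18.1 in GC-cells but 9.65 in RC-MVs and 8.70 in GC-MVs. The ratio of these 2 products of one transcript was thus higher in both cell libraries than in both MV libraries. The arm miR-425-3p had 99 and 144 reads in RC-cells and GC-cells, and 26 and 51 in RC-MVs and GC-MVs. The share was 1.54-fold higher in the MVs than in the cells of the resting zone (0.962 to 2.40), which counting error does not separate from 1, and 2.67-fold higher in the MVs than in the cells of the growth zone (1.90 to 3.70).

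The share of miR-103-3p was lower in vesicles. It had 11046 reads in RC-cells against 1022 in RC-MVs, and 12049 in GC-cells against 796 in GC-MVs, or 0.169%, 0.0922%, 0.163% and 0.0810% of miRNA reads. The share was 1.84-fold lower in the MVs than in the cells of the resting zone (1.72 to 1.96) and 2.01-fold lower in the MVs than in the cells of the growth zone (1.87 to 2.16). A 2-fold threshold thus falls between the zones, where the log2 ratio of the resting zone minus that of the growth zone was 0.13, with an interval from -0.01 to 0.26. That difference was 0.26 with TMM, 0.23 with size factors and -0.19 with totals that omitted the abundant miRNAs, so its direction depended on the scaling. Its reads were tabulated at both loci that give the same mature miRNA, and Mir103a2 held 55.7% of them in RC-cells and 53.1% in RC-MVs, and 56.3% in GC-cells and 51.4% in GC-MVs. Taken by locus, the growth zone log2 ratio was -1.14 at Mir103a2 and -0.85 at Mir103a1, so the 2-fold call was lost at Mir103a1. How reads that match both loci were placed is not given in the sources used here.

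The near-identical miR-107-3p was rarer, with 597 reads (0.00916%) in RC-cells against 40 (0.00361%) in RC-MVs, and 503 (0.00678%) in GC-cells against 40 (0.00407%) in GC-MVs. Its share was 2.54-fold lower in the MVs than in the cells of the resting zone (1.84 to 3.59) and 1.67-fold lower in the MVs than in the cells of the growth zone (1.21 to 2.36). Both vesicle shares lay below both cell shares, and the log2 ratio of the resting zone minus that of the growth zone was -0.61, with an interval from -1.26 to 0.05. There were 18.5 reads of miR-103-3p per read of miR-107-3p in RC-cells and 25.6 in RC-MVs, and 24.0 in GC-cells and 19.9 in GC-MVs. The 5p arms of these hairpins were nearly absent, with at most 4 reads of miR-103-2-5p, 1 of miR-107-5p and 1 of miR-103-1-5p in any library.

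Among the 6 main products, miR-423-5p differed most between vesicles and cells. It had 2663 reads (0.0409%) in RC-cells against 3598 (0.324%) in RC-MVs, and 2922 (0.0394%) in GC-cells against 5789 (0.589%) in GC-MVs. Although the MV libraries were the shallower ones, they held more reads of this miRNA than the cell libraries. The share was 7.94-fold higher in the MVs than in the cells of the resting zone (7.55 to 8.35) and 14.95-fold higher in the MVs than in the cells of the growth zone (14.3 to 15.6). Its ratio of MVs to cells was 1.88-fold larger in the growth zone, a log2 difference of -0.91 for the resting zone minus the growth zone with a counting interval from -1.01 to -0.82. The interval for miR-423-5p also lay below 0 with the other 3 scalings, with differences of -0.78, -0.80 and -1.23. For the other 5 main products it included 0 with percents, but this depended on the scaling, since it excluded 0 for miR-103-3p, miR-191a-5p and miR-423-3p with TMM and size factors and for all 5 with totals that omitted the abundant miRNAs. With percents the cell libraries differed little, with a ratio of 1.04 for RC-cells over GC-cells (0.983 to 1.09), or a log2 ratio of 0.05. This too depended on the scaling. The log2 ratio was -0.28 with TMM, -0.30 with size factors and -0.27 with totals that omitted the abundant miRNAs.

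The 3p arm of the same hairpin, miR-423-3p, had 6504 reads (0.0998%) in RC-cells against 3026 (0.273%) in RC-MVs, and 7215 (0.0973%) in GC-cells against 2522 (0.257%) in GC-MVs. Its share was 2.73-fold higher in the MVs than in the cells of the resting zone (2.62 to 2.86) and 2.64-fold higher in the MVs than in the cells of the growth zone (2.52 to 2.76). Both arms were thus higher in MVs of both zones, but unequally, so that the leading arm changed. The 5p arm held 29.0% of the reads of both arms in RC-cells (28.1% to 30.0%) and 28.8% in GC-cells (27.95% to 29.7%), against 54.3% in RC-MVs (53.1% to 55.5%) and 69.7% in GC-MVs (68.7% to 70.6%). The 3p arm led in both cell libraries and the 5p arm in both MV libraries.

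**Figure D2:**
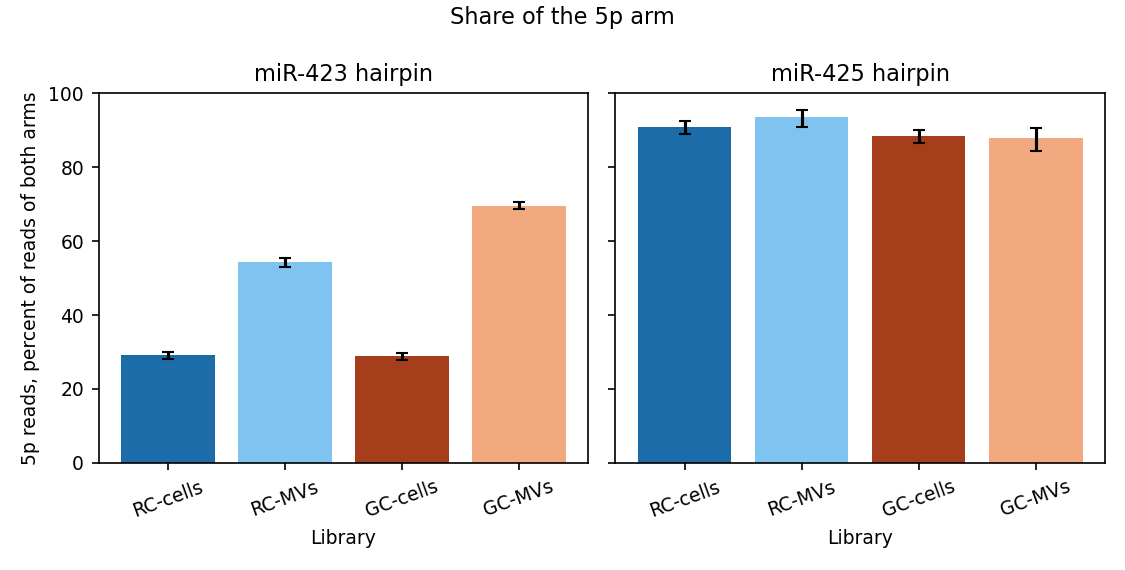
Reads of the 5p arm as a percent of the reads of both arms, for the miR-423 hairpin (left) and the miR-425 hairpin (right), 1 bar per library with Wilson 95% intervals for counting error. The 5p arm of miR-423 goes from 28.8% in GC-cells to 69.7% in GC-MVs, while that of miR-425 stays between 87.9% and 93.6%.

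The shift of the miR-423 arms can be set beside those of other hairpins. In reads of the 5p arm per read of the 3p arm it was 2.90-fold in the resting zone, where the median shift in either direction was 3.04-fold over the 76 hairpins with 10 or more reads of each arm in both, and its size ranked 40. In the growth zone it was 5.67-fold, ranking 12 of 69, against a median of 2.08-fold. A change in the ratio of arms between MVs and cells was therefore common in these libraries, but was not limited to that comparison. The median shift was 1.81-fold between RC-MVs and GC-MVs, over 65 hairpins, and 1.21-fold between RC-cells and GC-cells, over 116. For miR-425 the shift was 1.46-fold in the resting zone and 0.958-fold in the growth zone, ranking 66 of 76 and 66 of 69.

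**Figure D3:**
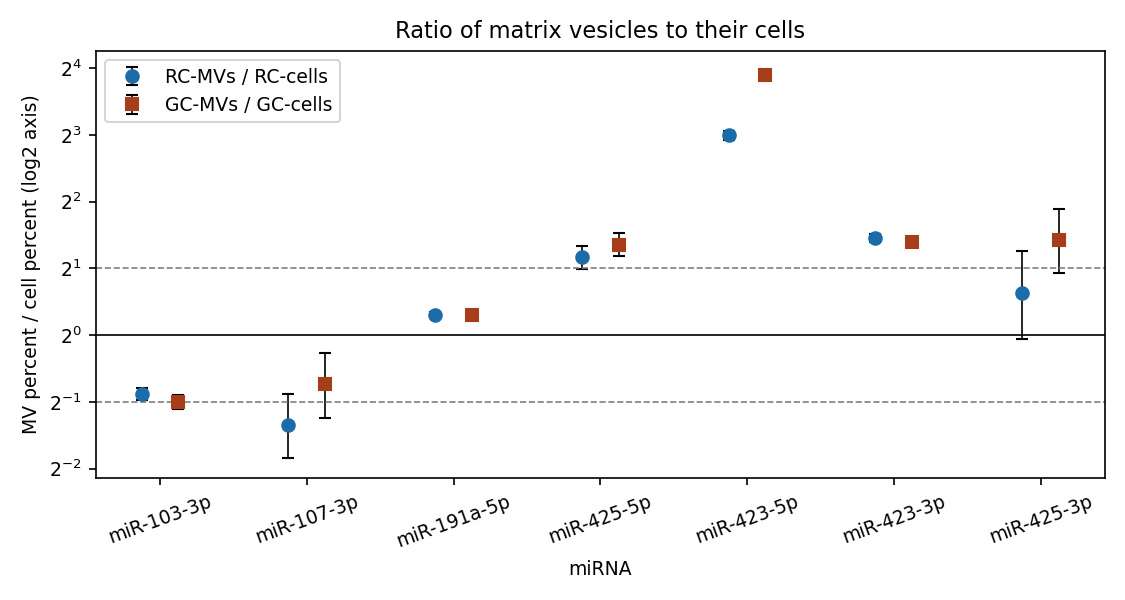
Percent of miRNA reads in MVs over that in the cells that made them (log2 axis), for the 6 main products and miR-425-3p, with exact 95% intervals for counting error, circles for the resting zone, squares for the growth zone and dashed lines at 2-fold in either direction. Only miR-191a-5p sits between the dashed lines in both zones with its whole interval, and miR-423-5p lies farthest from 1, at 7.94 and 14.95.

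A difference was called at 2-fold in either direction for names with at least 1 read in both libraries. Between RC-MVs and RC-cells, 9 of the 12 members had reads in both. Of these, 4 were higher and 1 lower in RC-MVs, where 64.0% of all 414 names tested were called, 33.6% higher and 30.4% lower. Between GC-MVs and GC-cells, 6 of 10 were higher and 1 lower in GC-MVs, and 57.3% of 417 names were called, 32.1% higher and 25.2% lower. These counts include names with 1 to 4 reads. When 10 reads or more were required in each, 3 of 7 members were higher and 1 lower in RC-MVs (62.8% of 293 names called, 34.5% higher and 28.3% lower), and 4 of 7 were higher and 1 lower in GC-MVs (52.4% of 275, 30.2% higher and 22.2% lower). Within 2-fold in both zones were 2 of 9 members, both arms of miR-191a, beside 26.6% of the 384 names with reads in all 4 libraries. With unmerged loci it was 3 of 10, miR-103-3p at Mir103a1 being the added one. With at least 10 reads in all 4, it was 1 of 7, miR-191a-5p, beside 30.2% of 262 names. Where the whole counting interval had to lie beyond 2-fold, 2 of 9 members and 43.2% of 414 names were called in the resting zone, and 3 of 10 members and 32.1% of 417 names in the growth zone. Between the zones 0 members were called in this way, beside 15.4% of names for the MVs and 5.06% for the cells.

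Between the zones, fewer members were called. Of 10 members with reads in both MV libraries, miR-425-3p was called, 2.21-fold lower in RC-MVs than GC-MVs (1.35 to 3.70), and 39.3% of 397 names were called, 24.7% higher and 14.6% lower in RC-MVs (35.8% of 271 with at least 10 reads). The split over all names moved with the scaling, to 18.6% higher and 17.9% lower with TMM, 17.9% and 20.7% with size factors, and 10.1% and 31.0% with totals that omitted the abundant miRNAs. The share of miR-423-5p was 1.82-fold lower in the MVs of the resting zone than in those of the growth zone (1.74 to 1.89), short of the threshold. This call depended on the scaling, since the log2 ratio of miR-423-5p was -0.86 with percents and -1.06 with TMM normalization, -1.11 with size factors and -1.49 with totals that omitted the 3 abundant miRNAs. Between RC-cells and GC-cells, 1 of 9 members was called, miR-103-2-5p with 4 and 2 reads, and 19.4% of 474 names were called, 13.7% higher and 5.7% lower in RC-cells. With TMM this split was 7.17% higher and 10.8% lower, and it was similar with the other 2 scalings. With at least 10 reads in both, 0 of 8 members and 13.2% of 379 names were called. Among the 6 main products the ratio of RC-cells to GC-cells with percents ran from 1.004 for miR-191a-5p to 1.35 for miR-107-3p (1.20 to 1.52). Each log2 ratio between the cells moved by -0.34 with TMM, -0.36 with size factors and -0.32 with totals that omitted the abundant miRNAs.

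The spread of a miRNA over the 4 libraries was described by the range of its log2 percent, the highest minus the lowest. Over the 262 names with at least 10 reads in each library, the median range was 1.90, or 3.73-fold. The range was 0.31 for miR-191a-5p, which ranked 4 from the steadiest. It was 1.06 for miR-103-3p (rank 55), 1.34 for miR-107-3p (84), 1.36 for miR-425-5p (86) and 1.49 for miR-423-3p (98). For miR-423-5p it was 3.90, or 14.95-fold, rank 250 of 262. With TMM normalization miR-191a-5p also ranked 4, with size factors 10, and with totals without the 3 abundant miRNAs 24, where its range was 0.71. Its highest library was then GC-MVs and its lowest RC-cells. The rank of miR-423-5p stayed between 250 and 254 under these scalings. By the larger absolute log2 ratio of MVs to cells over both zones, miR-191a-5p ranked 11 of 262 with percents, at 0.30. On that measure it ranked 7 with TMM, 10 with size factors and 21 with totals without the 3 abundant miRNAs.

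**Figure D4:**
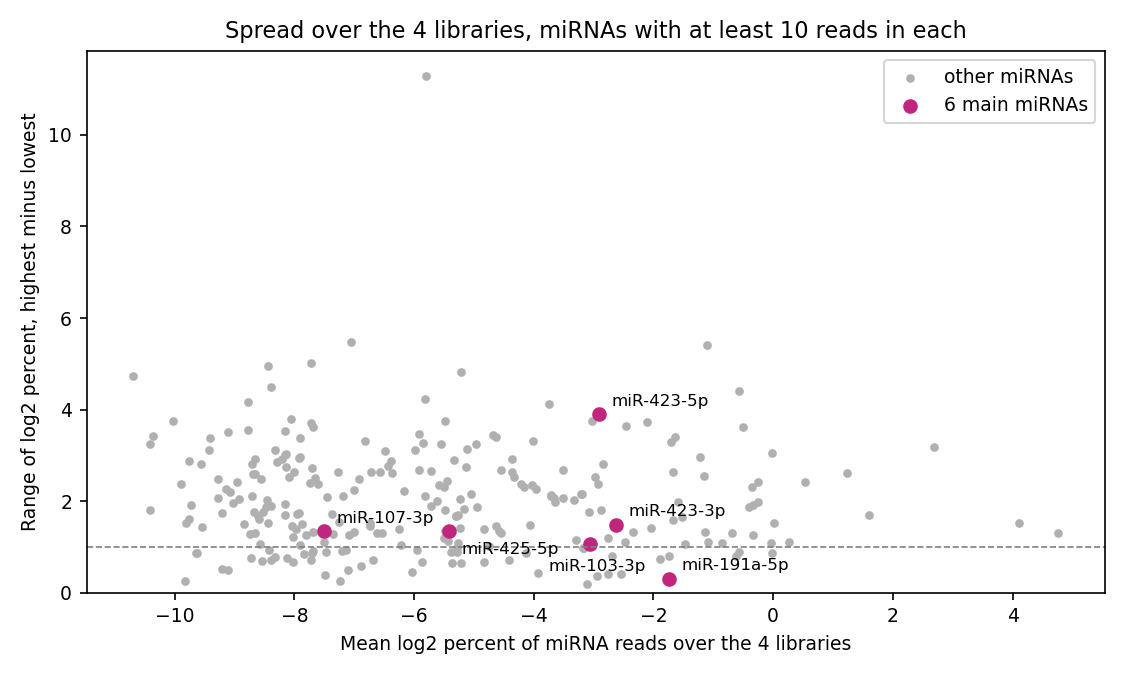
Range of log2 percent over the 4 libraries (highest minus lowest) against the mean log2 percent, 1 point per miRNA for the 262 names with at least 10 reads in each library, with the 6 main products labelled. The dashed line marks a range of 1, or 2-fold. Only miR-191a-5p of the 6 lies below it, at 0.31, and miR-423-5p ranks 250 of 262, at 3.90.

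Among the 131 names with at least 100 reads in each library, the 5 with the smallest range were miR-146a-5p (0.19), a miRNA of the inflammatory response, miR-191a-5p (0.31), miR-532-5p (0.37), let-7d-5p (0.41) and miR-31a-5p (0.42). The share of miR-146a-5p was 0.112% in RC-cells and 0.119% in RC-MVs, and 0.109% in GC-cells and 0.124% in GC-MVs. These ranges depended on the scaling. With totals that omitted the abundant miRNAs, the range of miR-146a-5p was 0.69 (rank 21 of 262), beside 0.71 for miR-191a-5p, 0.84 for miR-31a-5p, 0.90 for let-7d-5p and 1.00 for miR-532-5p.

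Ratios of 2 members within a library do not depend on the scaling, and the 6 main products form 15 pairs. The steadiest pair was miR-425-5p to miR-423-3p, at 0.153 in RC-cells and 0.126 in RC-MVs, and 0.152 in GC-cells and 0.148 in GC-MVs, so that the highest was 1.22 times the lowest. These miRNAs come from different chromosomes. The next was miR-103-3p to miR-107-3p, with 1.38. For all other pairs the highest ratio was at least 2.08 times the lowest, and for miR-107-3p to miR-423-5p it was 32.4 times. In each of these 13 pairs both cell libraries lay on one side and both MV libraries on the other.

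The names with the most similar pattern were sought by the distance between log2 percents centred on their mean, over the 4 libraries and the same 262 names. For miR-191a-5p the nearest was miR-31a-5p, at a distance of 0.10 where the median distance to all names was 1.5. For miR-103-3p it was miR-30a-5p (0.11) and for miR-107-3p let-7b-3p (0.20), followed by miR-421-3p (0.26). For miR-425-5p it was miR-877 (0.06), followed by miR-423-3p (0.23), whose own nearest name was miR-425-5p. The nearest to miR-423-5p were miR-760-3p (0.50) and miR-129-5p (0.62). With 4 libraries such a likeness is a description only.

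What a choice of reference does to the other miRNAs was read by scaling all names to each of the 6 main products in turn. This alternative was chosen after seeing the data. With percents of all miRNA reads, 33.6% of names were at least 2-fold higher in the MVs than in the cells of the resting zone and 30.4% at least 2-fold lower. Scaled to miR-191a-5p, these shares were 28.6% and 35.1%. Scaled to miR-103-3p, they were 48.4% and 17.4%, and scaled to miR-423-5p, 4.36% and 82.8%. Scaled to miR-107-3p, 58.4% of names were higher. In the growth zone there were 26.2% higher and 30.8% lower for miR-191a-5p, 53.1% and 9.38% for miR-103-3p, and 46.2% and 12.3% for miR-107-3p. There were 11.3% and 56.0% for miR-425-5p, 11.1% and 56.5% for miR-423-3p, and 2.64% and 90.6% for miR-423-5p. With the geometric mean there were 16.8% and 43.4%. The median log2 ratio of all names in the resting zone was 0.08 with percents, -0.22 with miR-191a-5p, 0.96 with miR-103-3p and -2.91 with miR-423-5p.

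**Figure D5:**
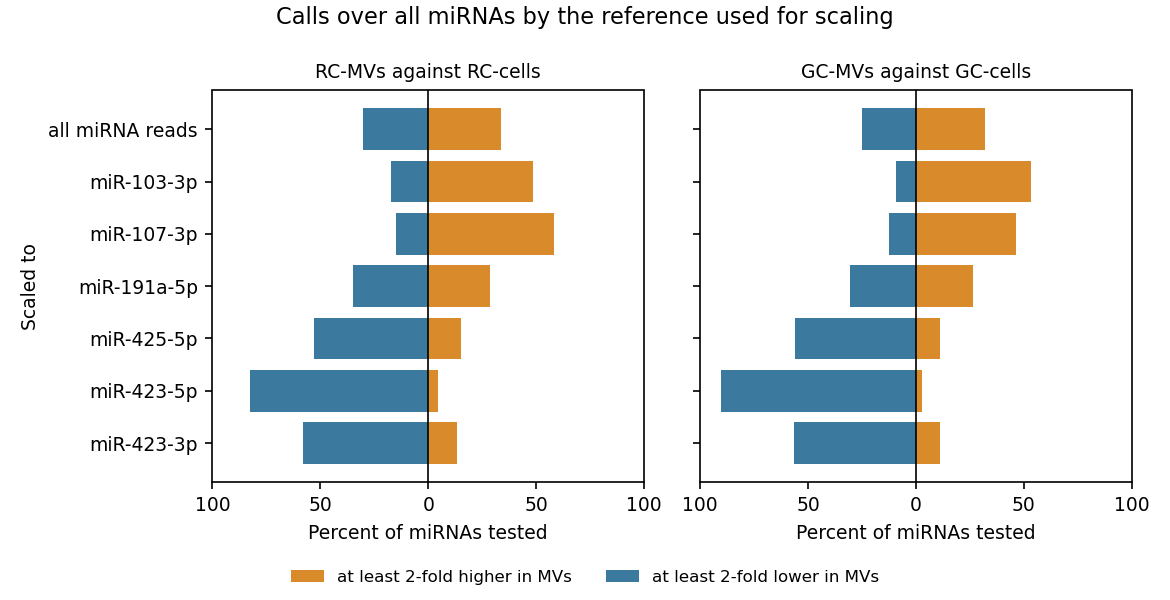
Percent of all miRNAs tested that were at least 2-fold higher (right of 0) or lower (left of 0) in MVs than in cells, when scaled to all miRNA reads or to each of the 6 main products, for the resting zone (left panel) and the growth zone (right panel). Scaled to miR-423-5p, 82.8% and 90.6% of miRNAs come out lower in MVs, and scaled to miR-103-3p, 48.4% and 53.1% come out higher.

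A list of 10 other miRNAs in common use as references was read in the same way. In the resting zone 2 were at least 2-fold higher in MVs, 5 lower and 3 within 2-fold, where 33.6% of all names were higher and 30.4% lower. In the growth zone 1 was higher, 4 lower and 5 within, where 32.1% of all names were higher and 25.2% lower. Their median log2 ratio was -1.03 in the resting zone, where that of all names was 0.08 and that of the 6 main products 0.80, and -0.24 in the growth zone, where these were 0.13 and 0.92. In the resting zone their log2 ratios ran from -3.30 to 4.76, and those of the 6 main products from -1.34 to 2.99. Within 2-fold in both zones were 3 of the 10, miR-24-3p, miR-25-3p and miR-93-5p, beside 26.6% of all names. With totals that omitted the abundant miRNAs, miR-24-3p was 2.16-fold lower in the resting zone and this call was lost. The share of miR-25-3p was 0.0631% in RC-cells and 0.0628% in RC-MVs, and 0.0594% in GC-cells and 0.0803% in GC-MVs. At the other end, miR-320-3p, which is made without Drosha, was 27.1-fold higher in RC-MVs (26.5 to 27.8), and miR-26a-5p was 9.84-fold lower (9.25 to 10.5). The widely used miR-16-5p was 8.87-fold lower in the MVs than in the cells of the resting zone (7.04 to 11.3) but 1.31-fold lower in the MVs than in the cells of the growth zone (1.18 to 1.47).

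By their seeds, miR-103 and miR-107 belong with the miR-15 family, whose members hold the same 6 bases AGCAGC 1 base further from the 5′ end. The sequence of miR-16-5p is shown to let this offset be seen, with bases 2 to 8 in capitals, beside miR-103-3p above.
miR-16-5p: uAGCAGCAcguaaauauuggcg

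Of the 660 names with a RefSeq sequence, 6 (0.909%) had AGCAGC from base 1 or 2, read on the mature strand only. They were miR-103-3p, miR-107-3p, miR-15b-5p, miR-16-5p, miR-195-5p and miR-497-5p. The measured share of each was lower in MVs than in cells in both zones, as it was for 40.1% of the 384 names with reads in all 4 libraries. The reads of miR-15b-5p were 344 in RC-cells and 11 in RC-MVs, and 232 in GC-cells and 10 in GC-MVs. Its share was 5.32-fold lower in RC-MVs (2.94 to 10.8) and 3.07-fold lower in GC-MVs (1.64 to 6.50), against 1.84-fold and 2.01-fold for miR-103-3p. For miR-195-5p there was 1 read in each MV library against 55 and 125 in RC-cells and GC-cells, and for miR-497-5p there were 5 reads in each MV library against 61 and 76, the latter with intervals of the ratio that included 1 in both zones. The listed miR-15a-5p, miR-322-5p and miR-503-5p were not matched by name and are not analysed here. Names without an arm suffix, such as miR-322 and miR-322*, had reads in every library but were not assigned to the family.

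The base composition of the mature sequence moved with the ratio of MVs to cells. Across the 265 names with a sequence and at least 10 reads in both RC-MVs and RC-cells, Spearman's rho between the percent of G and C bases and the log2 ratio was 0.56, and across 251 names in the growth zone it was 0.51. These are descriptions across miRNAs that share the same pair of libraries. Of the members, miR-103-3p, miR-107-3p and miR-425-5p have the same 47.8% of G and C, yet the first pair had log2 ratios of -0.88 and -1.34 in the resting zone and miR-425-5p had 1.17. The median log2 ratio of the other miRNAs within 5 percentage points of that composition was -0.01. For miR-191a-5p (52.2% G and C) the log2 ratio of 0.30 was close to the median of 0.375 of miRNAs of like composition. For miR-423-5p (54.2%) the log2 ratio of 2.99 was above 93.3% of such miRNAs in the resting zone, and its 3.90 was above all 80 such miRNAs in the growth zone. The part of base composition in the members' ratios was not tested further.

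Markers of other sources also differed between MVs and cells. The 3 listed liver and serum miRNAs, miR-122-5p, miR-192-5p and miR-194-5p, had reads in every library and made up 0.0284% of miRNA reads in RC-cells against 0.418% in RC-MVs, and 0.0393% in GC-cells and 1.18% in GC-MVs. Of the 8 listed blood and endothelial miRNAs, 7 were in the table and had reads in every library except miR-223-3p, at 0 in GC-cells, and they made up 0.0260%, 0.104%, 0.0223% and 0.252%. The miRNAs of neither list all differed in one direction. Most of the liver and serum sum in MVs was miR-122-5p, which had 4447 reads in RC-MVs against 32 in RC-cells, and 11225 in GC-MVs against 34 in GC-cells. The share of miR-192-5p was 0.0238% in RC-cells against 0.0162% in RC-MVs and nearly level in the growth zone, at 0.0338% and 0.0347%, and that of miR-194-5p was lower in MVs of both zones. Among the blood and endothelial miRNAs, miR-126a-3p made up 0.0248% in RC-cells against 0.0151% in RC-MVs, and 0.0211% in GC-cells against 0.0626% in GC-MVs, while the others with reads in both libraries had higher shares in MVs. Both sums had the same order of vesicle libraries as miR-423-5p, with GC-MVs above RC-MVs. Their part in the levels of miR-423-5p was not tested. In such bulk libraries, more material of another source and more miRNA per cell or vesicle cannot be told apart.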

How the data were processed

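Small RNA was sequenced from chondrocytes and MVs of both zones, 1 library each. Alignment by the authors was to Rnor_6.0 with Bowtie2, miARma-Seq made the table, and the values they deposited are raw counts for 774 annotated loci. Tool versions, read trimming and the placement of reads matching several loci are not given in the sources used here. Counts of equal mature names were added, giving 740 names, and divided by all miRNA reads of the library. Ratios of percents were called at 2-fold with at least 1 read in both libraries. The difference of log2 ratios between zones has a 95% interval from the Poisson variances of the 4 counts. The scripts that make the calls and intervals were first tested on simulated data.

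The members and lists were chosen with earlier results of these data known. Named beside the members are the 2 names of nearest pattern, the 5 of smallest range with at least 100 reads, and the listed reference, miR-15/107 and marker miRNAs. Sequences, matched by name for 9 of the 12 members, come from RefSeq (GRCr8). The PCR array was not used. Alternatives were TMM (edgeR 4.0.16), size factors (DESeq2 1.42.0), totals without 3 abundant miRNAs, a minimum of 10 reads, a pseudocount of 0.5, intervals wholly beyond 2-fold and unmerged loci. Python 3.11.15, numpy 2.4.6, pandas 2.3.3, scipy 1.17.1, matplotlib 3.10.9 and R 4.3.3 were used.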

Additional observations from a re-analysis of the deposited data

How the results depend on the processing

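No paired analysis was possible because each group had 1 library and the ratios came from no replicated test. TMM normalization moved all log2 ratios by -0.09 for RC-MVs against RC-cells, -0.22 for GC-MVs against GC-cells, -0.20 between the MVs and -0.34 between the cells. No called ratio of a member changed direction with TMM, size factors, totals without the 3 abundant miRNAs, a pseudocount of 0.5 or unmerged loci. Scaling to a member, chosen after seeing the data, could turn a call. The share of miR-425-5p was called higher in MVs of both zones. Scaled to miR-423-5p, its ratio of MVs to cells was 0.283 for resting and 0.171 for growth zone libraries. Requiring the whole interval beyond 2-fold left 2 members called for RC-MVs against RC-cells in place of 5 (43.2% of all names in place of 64.0%), 3 for GC-MVs against GC-cells in place of 7 (32.1% in place of 57.3%), and 0 in place of 1 for each comparison between zones (15.4% in place of 39.3% for the MVs, 5.06% in place of 19.4% for the cells), and left 6 of 9 members uncalled in both zones in place of 2, some of them with folds above 2 and wide intervals, beside 50.8% of 384 names. This is a stricter call. With a minimum of 10 reads, 1 member, miR-191a-5p, was within 2-fold in both zones, and 0 of 8 were called between the cells, beside 13.2% of 379 names, since fewer names were tested. Between the MVs, 2 members were called in place of 1 with TMM, size factors and totals without the 3 abundant miRNAs, the added one being miR-423-5p, where 36.5%, 38.5% and 41.1% of all 397 names were called. Between the cells, 0 were called with these 3 scalings (17.9%, 17.9% and 18.1% of all 474 names) and 3 of 11 with a pseudocount of 0.5, all with 4 reads or fewer (26.4% of 523 names). Totals without the 3 miRNAs exchanged calls near the threshold: the log2 ratio of miR-103-3p was then -1.09 for resting and -0.90 for growth zone libraries, and that of miR-425-5p in the resting zone was 0.96. Of the log2 ratios of single members under the alternatives other than scaling to a member, 140 stayed within their counting interval and 54 did not. Depth limits miR-107-3p and the minor arms most, with 51 reads or fewer in the MV libraries.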
